A study of Mus musculus with 8 samples.

Results

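The genes described here are 9 that a muscle fibre uses to store glucose as glycogen, to release it again and to bring glucose into the cell. They were chosen by symbol with earlier results of these data known, and looked up in the deposited count table through their Ensembl identifiers. They are the glycogen breakdown genes Pygm, Phka1 and Phkg1 and the glycogen synthesis genes Gyg, Ugp2, Gys1 and Gbe1. With them stand the glucose transporter gene Slc2a4 and the fructose bisphosphatase gene Fbp2. All 9 were found among the 19857 genes of the table, and 8 of them had enough counts to be tested. RNA came from the tongues of 12-month-old female mice, 4 wild type (WT) and 4 carrying the allele labelled PABPN1A17/+ (A17/+ below), each tongue giving 1 library from frozen sections of its median part. PABPN1 is a nuclear protein that binds poly(A) tails, and an expanded alanine tract in it causes oculopharyngeal muscular dystrophy. The strain and the way the allele was made are not given in the sources used here, and the labels name no treatment. The question was how the RNA of these genes differed between the genotypes.

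Glycogen is a branched polymer of glucose. Its building block, UDP-glucose, is made by UGP2, the protein primer glycogenin (GYG) starts a chain, glycogen synthase (GYS1) extends it and the branching enzyme (GBE1) adds branches. Glycogen phosphorylase of muscle (PYGM) cuts glucose units off as glucose 1-phosphate once phosphorylase kinase has switched it on, and PHKA1 and PHKG1 are the muscle regulatory and catalytic subunits of that kinase. SLC2A4 (GLUT4) is the transporter that moves to the surface of muscle and fat cells in response to insulin and contraction. FBP2, the muscle form of fructose bisphosphatase, runs a glycolytic step in reverse, so that carbon can return from lactate towards glycogen.

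Each count is a unique molecular identifier (UMI), that is, 1 captured RNA molecule read at its 3' end. Libraries held between 205696 and 465014 UMIs in WT and between 395061 and 485326 in A17/+ (exact permutation p = 0.114, two-sided). Between 11339 and 14164 genes were detected in WT libraries and between 14219 and 14437 in A17/+ libraries, without overlap (exact permutation p = 0.0286, two-sided), and the part of this in the results was not tested. Levels are given as CPM, counts set relative to a library size that was scaled by the trimmed mean of M values (TMM), and differences as the log2 fold change of A17/+ minus WT from edgeR, called at a Benjamini-Hochberg adjusted p under 0.05 over 5066 tested genes. WT 1 stood apart from the other libraries in its salivary gland RNA: 9 of 10 gland markers were in the table and summed to 933 UMIs there, against 0 to 20 in the other 7. WT 1 also held the highest WT level of Pygm, Slc2a4, Ugp2, Gbe1, Phka1 and Phkg1. In the fit without WT 1 their log2 fold changes were, in this order, 1.61, 1.42, 0.83, 0.59, 0.97 and 0.84. Each was called there, or not called, as in the main fit. The libraries of a group carry separate numbers in the labels and were taken as separate animals, and P-values rest on the spread between them. The exception is the edgeR fit with no filter, whose p-values rest almost wholly on a spread pooled over genes. In whole tongue, a change in the number of muscle cells and a change in RNA per muscle cell cannot be told apart.

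In A17/+ tongue, Pygm, Slc2a4 and Ugp2 were higher and Fbp2 was lower by edgeR. Over all genes tested, 6.34% were called higher and 2.61% lower, beside 3 and 1 of the 8 members tested. The remaining 4, Phka1, Phkg1, Gbe1 and Gys1, did not pass, and Gyg was below the filter on low counts. Fbp2 passed that filter through its WT libraries alone, and a gene that enters in this way has to differ. The 8 tested members had a median log2 fold change of 0.76, against 0.01 over all genes tested. The 4 A17/+ values all lay above the 4 WT values for Pygm and Slc2a4 and all below them for Fbp2, patterns that 8.57% and 6.08% of all tested genes showed. Of the genes called, 70.9% were higher, and 49.1% when libraries were scaled by their totals alone (279 higher, 289 lower), where Ugp2 was no longer among the called members. The members were chosen by name with earlier results of these data known, so these counts describe the set and do not single it out.

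**Figure D1:**
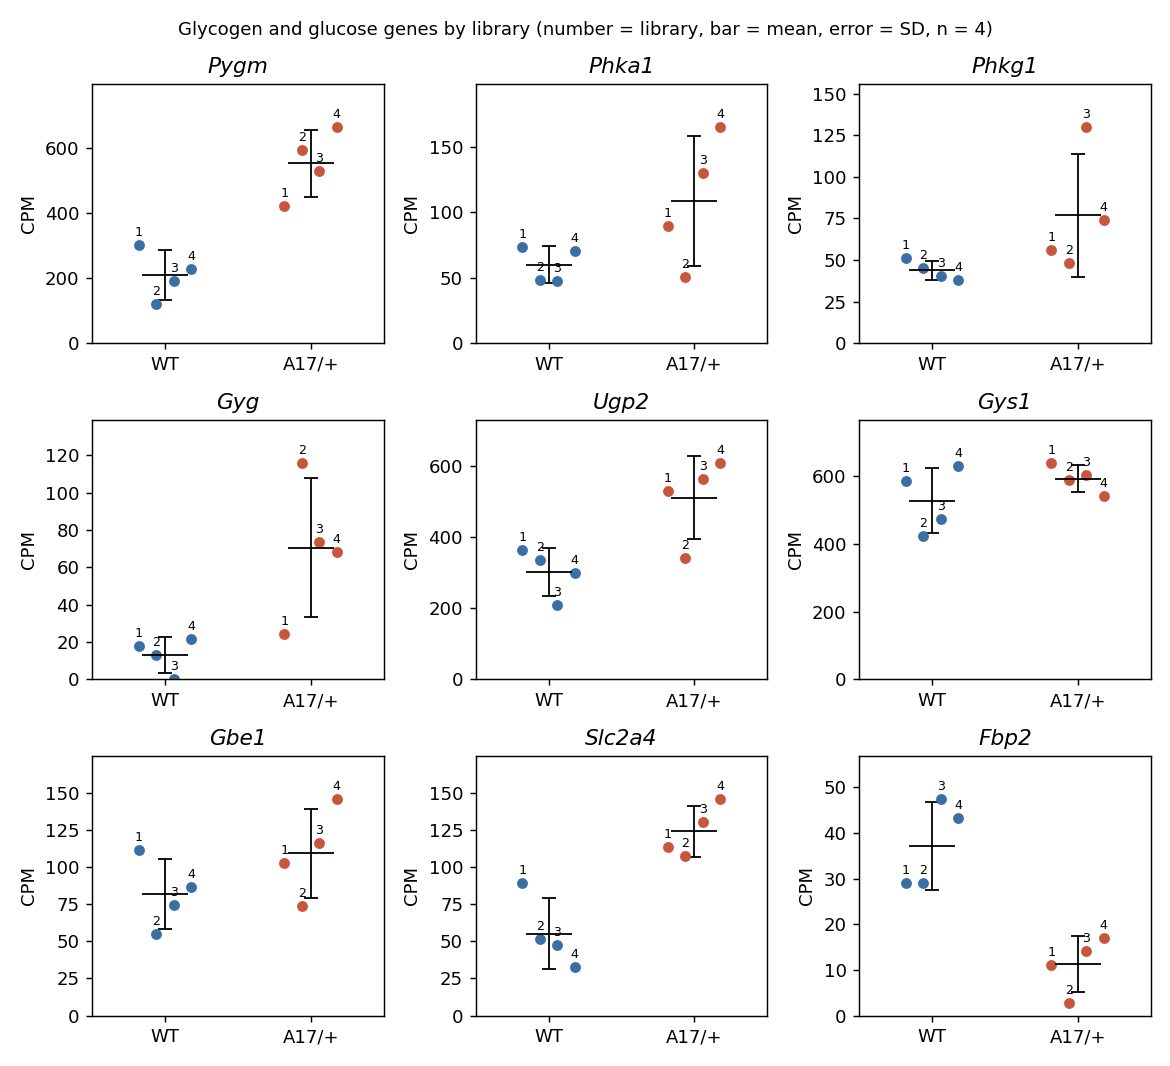
Level of each of the 9 genes in CPM (y axis, from 0) in the 4 WT (blue) and 4 A17/+ (red) libraries, with the library number beside each point, the mean as a bar and the SD as the error. Pygm, Slc2a4 and Gyg have every red point above every blue one, Fbp2 has every red point below, and Gys1 overlaps, from 423 to 628 CPM in WT and 542 to 638 CPM in A17/+.

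Pygm (ENSMUSG00000032648, mm10 chromosome 19, 6384399 to 6398459, plus strand) encodes the muscle glycogen phosphorylase. Its level was 301, 119.6, 189.5 and 228 CPM in WT 1 to 4 and 421, 593, 528 and 664 CPM in A17/+ 1 to 4. The groups did not overlap, and WT 1 and A17/+ 1 were the 2 libraries nearest to each other across the gap. The mean went from 209 ± 75.6 to 552 ± 103 CPM (SD, n = 4), a log2 fold change of 1.39 with a 95% interval from 0.89 to 1.88 (edgeR adjusted p = 0.00325). Between 37 and 135 UMIs per WT library and 187 and 233 per A17/+ library stood behind these values. It was called under each of the 13 other settings and without each library in turn, with log2 fold changes from 1.14 without WT 2 to 1.76 without both libraries numbered 1.

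The 250 bases before the RefSeq start of Pygm (GRCm38.p6) are shown beside those of Fbp2, as the members with the largest rise and the only fall among those tested. Capitals mark E-boxes (CANNTG, the core sequence that myogenic and clock factors of the basic helix-loop-helix class bind), searched on both strands. Each sequence runs 5′ to 3′ on the strand of its gene.
Pygm, chr19:6384158-6384407, plus strand: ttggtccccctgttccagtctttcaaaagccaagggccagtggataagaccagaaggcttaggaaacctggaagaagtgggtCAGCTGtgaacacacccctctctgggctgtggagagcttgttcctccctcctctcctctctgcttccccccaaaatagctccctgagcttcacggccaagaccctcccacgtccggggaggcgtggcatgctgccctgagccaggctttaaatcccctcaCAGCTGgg
Fbp2, chr13:62858401-62858650, minus strand: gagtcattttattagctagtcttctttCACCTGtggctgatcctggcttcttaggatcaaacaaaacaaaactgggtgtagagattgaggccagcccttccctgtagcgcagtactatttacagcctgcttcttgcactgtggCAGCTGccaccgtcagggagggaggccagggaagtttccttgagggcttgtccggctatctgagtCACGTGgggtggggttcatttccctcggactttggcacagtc
Pygm had 2 E-boxes, each reading CAGCTG, starting 168 and 8 bases before the start. Fbp2 had 3, of which CACCTG lay at 223 bases, the form CAGCTG shared with Pygm at 107 bases and the palindrome CACGTG at 42 bases before its start. Windows of this length hold at least 1 E-box in 66.2% of the 32851 RefSeq promoters, and CACGTG, which is also counted among the E-boxes, in 6.02%. Fbp2 was the only member with CACGTG in its window, among the 8 members that had an entry, Ugp2 with 2 starts. None of these windows matched the MEF2 site, the ERR element TNAAGGTCA or TATAAA, which 2.92%, 1.14% and 12.4% of all windows held on either strand. These matches describe letters only. Slc2a4 had no entry.

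The phosphorylase kinase subunits had higher means in A17/+ that did not pass the test. Phka1 (chromosome X, 102513975 to 102644246, minus strand) had 73.5, 48.5, 47.4 and 70.4 CPM in WT 1 to 4 and 89.2, 50.8, 129.96 and 165 CPM in A17/+ 1 to 4. A17/+ 2 lay inside the WT range and the other 3 lay above it. The log2 fold change was 0.85 with an interval from 0.16 to 1.54 (edgeR adjusted p = 0.110), and Phka1 was called without A17/+ 2 (1.08, adjusted p = 0.0198) and without both libraries numbered 1 (1.09, adjusted p = 0.0484), while without A17/+ 4 it had 0.56 (adjusted p = 0.360). Phkg1 (chromosome 5, 129863421 to 129898549, minus strand) had 37.9 to 51.3 CPM in WT and 55.7, 48.0, 129.96 and 74.1 CPM in A17/+ 1 to 4. Only A17/+ 2 fell within the WT range, and A17/+ 3 was the highest. Its log2 fold change was 0.77, interval 0.09 to 1.45 (edgeR adjusted p = 0.145), and without A17/+ 3 it was 0.41 (adjusted p = 0.480). Chchd2, with 328 UMIs over the 8 libraries, lies on the same strand and shares 6315 bases of gene span with Phkg1, so the assignment of reads to Phkg1 is uncertain. Phkb, the shared beta subunit and no member, had 0.17 with an interval from -0.39 to 0.72 (adjusted p = 0.747), while Phka2 and Phkg2, the liver forms, were below the filter.

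The other genes of glycogen breakdown, 13 in the list, had 6 tested, 0 called higher and 0 called lower by edgeR, with a median log2 fold change of 0.47. Epm2a, which encodes laforin, a phosphatase of glycogen, had 1.17 (edgeR adjusted p = 0.0543). The adjusted p of Epm2a was 0.0429 without WT 2, 0.0114 without A17/+ 2, 0.0159 with no filter and 0.0432 with the length trend removed. Pygb, the brain form of phosphorylase, averaged 25.7 ± 10.3 CPM and 32.0 ± 3.97 CPM in the respective genotypes (SD, n = 4; edgeR adjusted p = 0.552), and its difference from Pygm was not tested. The liver form Pygl was below the filter.

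Among the synthesis members, Ugp2 was called and Gys1 and Gbe1 were not. Ugp2 (ENSMUSG00000001891, chromosome 11, 21321138 to 21371201, minus strand) had 363, 336, 209.8 and 298 CPM in WT 1 to 4 and 528, 342, 562 and 607 CPM in A17/+ 1 to 4. A17/+ 2 lay within the WT range, and the other A17/+ libraries lay above every WT library. The mean went from 302 ± 66.9 to 509.9 ± 117 CPM (SD, n = 4), a log2 fold change of 0.75 with an interval from 0.31 to 1.19 (edgeR adjusted p = 0.0304). This call was the least stable of the 4: it was lost without WT 2 (adjusted p = 0.0720), WT 3 (0.125), WT 4 (0.0882), A17/+ 1 (0.0508), A17/+ 3 (0.0990) or A17/+ 4 (0.128). The adjusted p of Ugp2 was 0.0680 with library totals in place of TMM, 0.0631 with limma-voom, 0.0556 with the replicate number as a block and 0.0596 with counts thinned to the smallest library. Over every setting and left-out library, those that kept the call included, the log2 fold change of Ugp2 ran from 0.59 to 0.90.

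Gys1 (ENSMUSG00000003865, chromosome 7, 45434844 to 45456619, plus strand), muscle glycogen synthase, had 584, 423, 474 and 628 CPM in WT 1 to 4 and 638, 587, 602 and 542 CPM in A17/+ 1 to 4. The groups overlapped, and with 116 to 286 UMIs per library it was measured with the narrowest interval of the members: the log2 fold change was 0.17, interval -0.17 to 0.51, which is a fold between 0.892 and 1.42 (edgeR adjusted p = 0.547). Ruvbl2, on the opposite strand, shares 3253 bases of its span and had 35 UMIs over all libraries. Gbe1 (chromosome 16, 70313949 to 70569716, plus strand), the branching enzyme, had 111, 54.9, 74.5 and 86.7 CPM in WT 1 to 4 and 103, 73.4, 116 and 145 CPM in A17/+ 1 to 4. Here too the groups overlapped. The log2 fold change of Gbe1 was 0.40 with an interval from -0.17 to 0.96 (edgeR adjusted p = 0.382), and neither gene was called under any of the 13 other settings or without any library. Over these the log2 fold change ran from 0.04 to 0.21 for Gys1 and from 0.21 to 0.79 for Gbe1.

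Gyg (ENSMUSG00000019528, chromosome 3, 20122084 to 20155317, minus strand), the glycogenin primer, had 8, 4, 0 and 4 UMIs in WT 1 to 4 and 11, 41, 26 and 24 UMIs in A17/+ 1 to 4. As levels, the WT libraries held 17.8, 12.9, 0 and 21.7 CPM and the A17/+ libraries 24.5, 116, 73.5 and 68.4 CPM in the same order, and the 0 in WT 3 allows a level of up to 10.2 CPM, the worth of 3 UMIs there. All A17/+ values lay above all WT values, A17/+ 1 by little. The filter asks for about 24.6 CPM of unscaled UMIs in 4 libraries, which Gyg reached in 3 A17/+ and 0 WT libraries, so it was not in the edgeR fit. The means were 13.1 ± 9.44 and 70.5 ± 37.3 CPM (SD, n = 4; exact permutation p of log2(CPM + 1) = 0.0286, two-sided, the smallest that 70 assignments can give). Without a filter edgeR gave a log2 fold change of 2.32 (adjusted p = 1.25e-06 over 19857 genes). That fit took its spread almost wholly from all genes pooled, so its p-values and intervals do not carry the limit of 4 libraries per genotype. For Pygm it gave an unadjusted p of 2.54e-11, where the main edgeR fit gave 2.18e-05. With genes of a mean count of 10 or more it gave 2.39 (adjusted p = 0.0226). Gyg reached that mean only through its A17/+ libraries, as its WT counts were 8, 4, 0 and 4 UMIs. With some libraries left out Gyg passed the main filter, also through its A17/+ libraries alone. Neither those fits nor the one with a mean count of 10 or more give it support.

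Regulators of synthesis, 12 in the list, had 5 tested and 0 called in either direction by edgeR, with a median of 0.71. Gsk3b, a kinase that restrains glycogen synthase, went from 54.0 ± 6.10 to 89.8 ± 9.95 CPM (SD, n = 4), a log2 fold change of 0.71 (edgeR adjusted p = 0.0634). All its A17/+ values lay above all its WT values, as in 8.57% of the genes tested. Gsk3b was called without both libraries numbered 1 (0.89, adjusted p = 0.0285) and with the length trend removed (0.82, adjusted p = 0.0398). Ppp1r3c, a subunit that targets a phosphatase to glycogen, had 15, 0, 2 and 0 UMIs across WT 1 to 4, and 17, 26, 11 and 12 UMIs across A17/+ 1 to 4, with a log2 fold change of 1.72 (edgeR adjusted p = 0.121). Without WT 1 that of Ppp1r3c was 3.89 (adjusted p = 0.00395). It passed the filter there through its A17/+ libraries alone, so that fit gives it no support. Ppp1r3c was called with no filter (adjusted p = 0.00651), with limma-voom (0.0352) and with limma-trend on the deposited log2 values (0.0199). The main filter, which limma-voom shares, was met by its A17/+ libraries, and in WT by WT 1 alone. Its A17/+ libraries would have carried it past that filter by themselves, so the limma-voom call gives it no support.

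**Figure D2:**
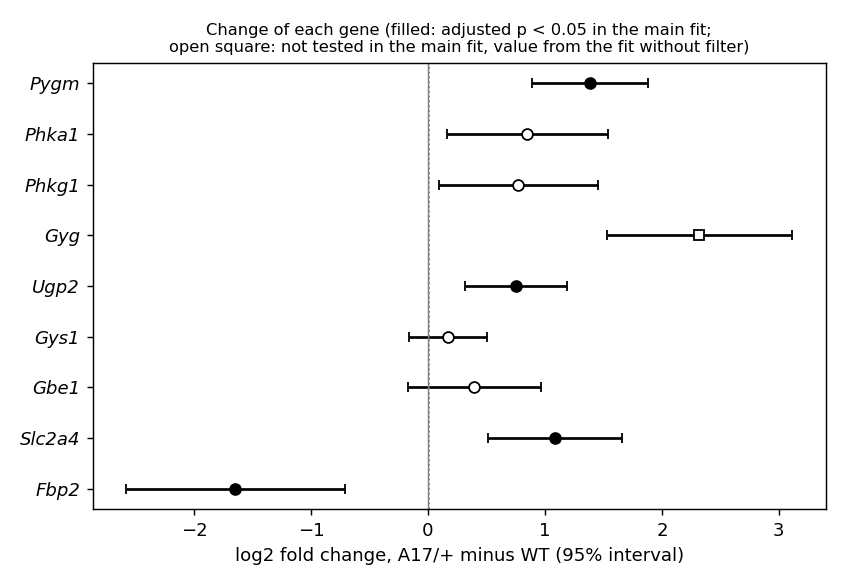
Log2 fold change of A17/+ minus WT (x axis) with its 95% interval for each of the 9 genes, filled where edgeR called it. The open square of Gyg and its interval come from the fit without a filter, where the spread is pooled over genes. The dotted line is the median of all genes tested. Pygm, Slc2a4 and Ugp2 lie to the right at 1.39, 1.08 and 0.75, Fbp2 to the left at -1.65, and the intervals of Gys1 and Gbe1 cross 0.

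Slc2a4 (ENSMUSG00000018566, chromosome 11, 69942539 to 69948188, minus strand), the insulin-responsive glucose transporter, had 89.1, 51.7, 47.4 and 32.5 CPM in WT 1 to 4 and 114, 107, 129.96 and 145 CPM in A17/+ 1 to 4. Every A17/+ library lay above every WT library, with WT 1 the highest of its genotype. The mean rose from 55.2 ± 24.1 to 124 ± 17.09 CPM (SD, n = 4), a log2 fold change of 1.08 with an interval from 0.51 to 1.66 (edgeR adjusted p = 0.0189). The call was lost without WT 2 (adjusted p = 0.0698), WT 3 (0.0777), WT 4 (0.0639), A17/+ 3 (0.0592) or A17/+ 4 (0.0739), where the log2 fold change stayed between 0.90 and 1.07. Without WT 1 it was 1.42 (adjusted p = 0.00409), and with counts thinned to the smallest library 0.62 (adjusted p = 0.407). Fat cells also make this transporter. Of 8 adipocyte markers 7 were in the table and 3 tested, and all 3, the fatty acid binding protein gene Fabp4, the lipoprotein lipase gene Lpl and the lipid droplet gene Plin4, were called higher. Over all genes tested 6.34% were called higher. Fabp4 had 3 to 6 UMIs per WT library and passed the filter through its A17/+ libraries alone, and a gene that enters in this way has to differ. The list summed to 0.0165% to 0.0357% of the UMIs in WT and 0.0562% to 0.0655% in A17/+. Adipoq, a defining fat cell gene, had 0 to 1 UMIs per WT and 0 to 2 per A17/+ library, and Plin1 and Cidec had at most 3 and 1. Cfd, the adipsin gene, had 0 UMIs in all 4 WT libraries and 2, 0, 4 and 3 UMIs in A17/+ 1 to 4. The part of fat cells in the Slc2a4 values was not tested.

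Of 20 other genes of glucose uptake and transporter traffic, 13 were tested, and by edgeR 1 was called higher and 0 lower, with a median of 0.08. Over all genes tested, 6.34% were called higher and 2.61% lower, so this count lay near the share of all genes. The called gene was Txnip, which encodes a protein that draws glucose transporters away from the surface. Txnip had 84.7, 74.3, 67.7 and 65.0 CPM in WT 1 to 4 and 149.4, 189.2, 124 and 131 CPM in A17/+ 1 to 4, with no overlap. All A17/+ values lay above all WT values in 8.57% of the genes tested. Its log2 fold change was 1.00 with an interval from 0.53 to 1.48 (edgeR adjusted p = 0.0110), and without WT 3 it was 0.95 (adjusted p = 0.0531).

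Fbp2 (ENSMUSG00000021456, chromosome 13, 62836877 to 62858422, minus strand) was the only member called lower. It had 13, 9, 14 and 8 UMIs in WT 1 to 4 and 5, 1, 5 and 6 UMIs in A17/+ 1 to 4. As levels, the WT libraries held 29.0, 29.1, 47.4 and 43.3 CPM and the A17/+ libraries 11.1, 2.82, 14.1 and 17.1025 CPM in the same order, so that every A17/+ library lay below every WT library. The log2 fold change was -1.65 with an interval from -2.58 to -0.71, a level of 0.167 to 0.610 of WT (edgeR adjusted p = 0.0268). Fbp2 passed the filter through its 4 WT libraries alone, with 0 A17/+ libraries above it, and a gene that enters in this way has to differ. With no filter its log2 fold change was -1.70 (adjusted p = 0.0112 over 19857 genes, with the spread pooled over genes). The call was lost without WT 2 (adjusted p = 0.0525), WT 3 (0.118), WT 4 (0.0674), A17/+ 2 (0.0534) or A17/+ 3 (0.0611), and with limma-voom (0.0601), while the log2 fold change stayed between -1.98 and -1.35. Since only 44 and 17 UMIs in all stood behind the groups, single-library values of Fbp2 carry a large counting error.

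The other gluconeogenic genes of the list, of which 6 of 8 were in the table, had 2 tested and 0 called. Aldoa, the muscle aldolase, had 0.57 (edgeR adjusted p = 0.0956), and Gpi1, glucose phosphate isomerase, had 0.14 (adjusted p = 0.670). Both enzymes also serve glycolysis. Aldoa was called without A17/+ 1 (adjusted p = 0.0160), without both libraries numbered 1 (0.0161) and with no filter (0.0204), whereas with the length trend removed its log2 fold change was 0.24 (adjusted p = 0.533). The liver and kidney genes Pygl, Gys2 and Pck1, markers of the hepatic forms of these pathways, together had 4 to 11 UMIs per WT library and 2 to 6 per A17/+ library.

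Pyruvate dehydrogenase kinases spare glucose by keeping pyruvate out of the citric acid cycle. Of the 7 kinases and phosphatases listed, 5 were tested, 1 was called higher and 0 lower by edgeR, and the median was 0.28. The shares over all genes tested were 6.34% higher and 2.61% lower. Pdk2, the called kinase, had 33.4, 51.7, 37.2 and 21.7 CPM in WT 1 to 4 and 58.0, 155, 110.2 and 157 CPM in A17/+ 1 to 4, without overlap, a pattern that 8.57% of tested genes showed in this direction. Its log2 fold change was 1.68 with an interval from 0.96 to 2.39 (edgeR adjusted p = 0.00726), and it was called under each other setting and without each library. For AMP-activated kinase, the energy sensor that promotes glucose uptake, 5 of 7 subunit genes were tested and 0 called, with a median of 0.09. Its catalytic subunit gene Prkaa2 had 0.87 (edgeR adjusted p = 0.140) and its scaffold subunit gene Prkab2 0.81 (adjusted p = 0.157). Without WT 1 these were 1.40 (adjusted p = 0.0207) for Prkaa2 and 1.33 (adjusted p = 0.0236) for Prkab2, and without A17/+ 2 Prkaa2 had 1.08 (adjusted p = 0.0435). Without both libraries numbered 1 Prkaa2 and Prkab2 had 1.36 and 1.49 (adjusted p = 0.0181 and 0.00896). In this fit and in the one without WT 1, Prkab2 passed the filter through its A17/+ libraries alone. Those fits give Prkab2 no support.

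Ratios of UMIs within a library do not depend on how libraries are scaled. They were looked at after the values of the members were known and carry no test. Pygm per Gys1, phosphorylase over synthase, came to 0.515, 0.282, 0.400 and 0.362 across WT 1 to 4, and to 0.661, 1.01, 0.878 and 1.23 across A17/+ 1 to 4. The groups did not overlap. Slc2a4 per Gys1 came to 0.153, 0.122, 0.10 and 0.0517 across WT 1 to 4, and to 0.178, 0.183, 0.216 and 0.268 across A17/+ 1 to 4, also without overlap. Ugp2 per Gys1 overlapped, with 0.443 to 0.794 in WT and 0.582 to 1.12 in A17/+. Pygm per Gbe1, phosphorylase over the branching enzyme, did not overlap, with 2.18 to 2.7 in WT and 4.11 to 8.08 in A17/+.

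**Figure D3:**
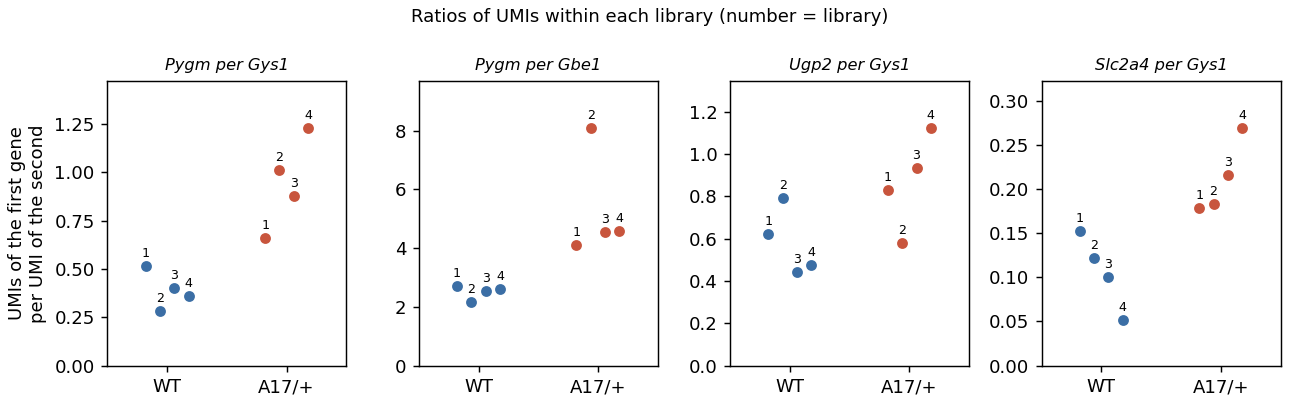
UMIs of the first gene per UMI of the second (y axis, from 0) in each library, WT in blue and A17/+ in red, numbered by library. Pygm per Gys1 separates the genotypes, from at most 0.515 in WT to at least 0.661 in A17/+, and Pygm per Gbe1 and Slc2a4 per Gys1 do so too, whereas Ugp2 per Gys1 overlaps.

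Transcript length moved with the fold change over all genes. Tested genes with a median transcript under 1000 nt (292 genes) had a median log2 fold change of 0.85, those of 1000 to 2000 nt 0.19, those of 2000 to 4000 nt 0.01 and those over 8000 nt -0.13. Transcripts under 1000 nt took 6.40% to 8.48% of the UMIs in WT and 8.35% to 12.5% in A17/+ (exact permutation p = 0.0571, two-sided). Pygm (2728 nt), Slc2a4 (2150 nt) and Ugp2 (2363 nt) lay in the bin of 2000 to 4000 nt, where 4.23% of genes were called higher and 2.14% lower. Fbp2, at 1354 nt, lay in the bin of 1000 to 2000 nt, where 13.1% were called higher and 1.94% lower. With the length trend removed from each library, all 4 kept their calls: Pygm had 1.39 (adjusted p = 0.00228), Slc2a4 1.02 (0.0234), Ugp2 0.71 (0.0420) and Fbp2 -1.98 (0.0132). Fbp2 entered this fit, too, through its WT libraries alone, so its kept call gives it no support.

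**Figure D4:**
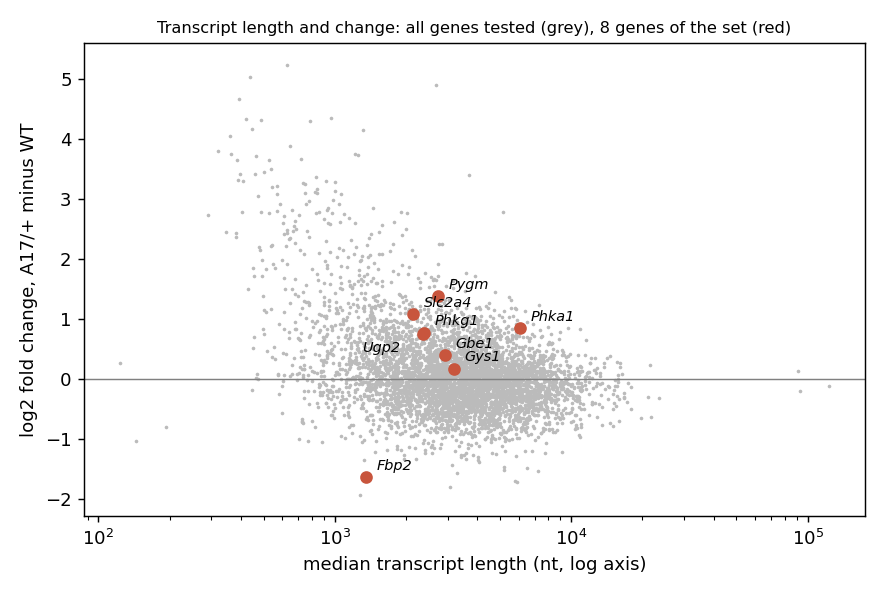
Log2 fold change of A17/+ minus WT (y axis) against the median transcript length in nt (x axis, log scale) for the genes tested (grey) and the 8 tested members (red). The grey points rise towards short transcripts, while Pygm, Slc2a4 and Ugp2 sit between 2150 and 2728 nt and Fbp2 lies at 1354 nt below 0.

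Muscle markers moved with the genotype beside these genes. Of 10 skeletal muscle markers 5 were called higher and 0 lower by edgeR, beside 6.34% higher and 2.61% lower over all genes tested. The list held 8.13% to 9.84% of UMIs in WT and 8.60% to 10.7% in A17/+, which overlap. Of 10 fast fibre markers 7 were called higher and 0 lower, with 2.60% to 3.29% of UMIs in WT and 3.46% to 3.59% in A17/+, which do not. Myh1, Myh4, Tnni2, Tnnt3, Actn3 and Mylpf stand in both lists, so the calls of Tnnt3, Actn3 and Mylpf were counted in each. Pvalb, a fast fibre marker called higher with 0 to 4 UMIs per WT library, passed the filter through its A17/+ libraries alone. Myh4, the myosin of type IIb fibres, had a log2 fold change of -0.01. Of 8 slow fibre markers 5 were in the table and 3 tested, with 0 higher and 1 lower. Of 10 tongue epithelium markers 0 were called higher and 2 lower, and the list took 0.985% to 1.23% in WT and 0.760% to 1.45% in A17/+. Mitochondrial transcripts took 4.17% to 6.43% in WT and 7.24% to 10.98% in A17/+ (exact permutation p = 0.0286, two-sided). The part of fibre type, muscle content or RNA composition in the changes of the glycogen genes was not tested.

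The tested genes whose log2 CPM was most like that of Pygm over the 8 libraries were Mpc1, a subunit of the mitochondrial pyruvate carrier (Pearson r = 0.985), Tnnt3, the fast troponin T (r = 0.982), and the noncoding RNA H19 (r = 0.980). With the genotype means taken out, these were 0.935, 0.942 and 0.901. For Fbp2 they were Hephl1 (r = 0.970), Nup153, a nuclear pore protein (r = 0.964), and Fat1, a giant cadherin (r = 0.956), or 0.908, 0.870 and 0.840 without the genotype means. They were picked as the highest of all tested genes over 8 libraries that share depth and scaling, so the values are descriptions.

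Beside the values above, the stability of the calls differed between the members. Pygm kept its call throughout, and Gys1, Gbe1 and Phkg1 were never called. Slc2a4 kept it in 3 of 8 fits with 1 library left out, Fbp2 in 3 of 8 and Ugp2 in 2 of 8. Fbp2 entered those fits through its WT libraries alone. No member changed direction under any setting.

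**Figure D5:**
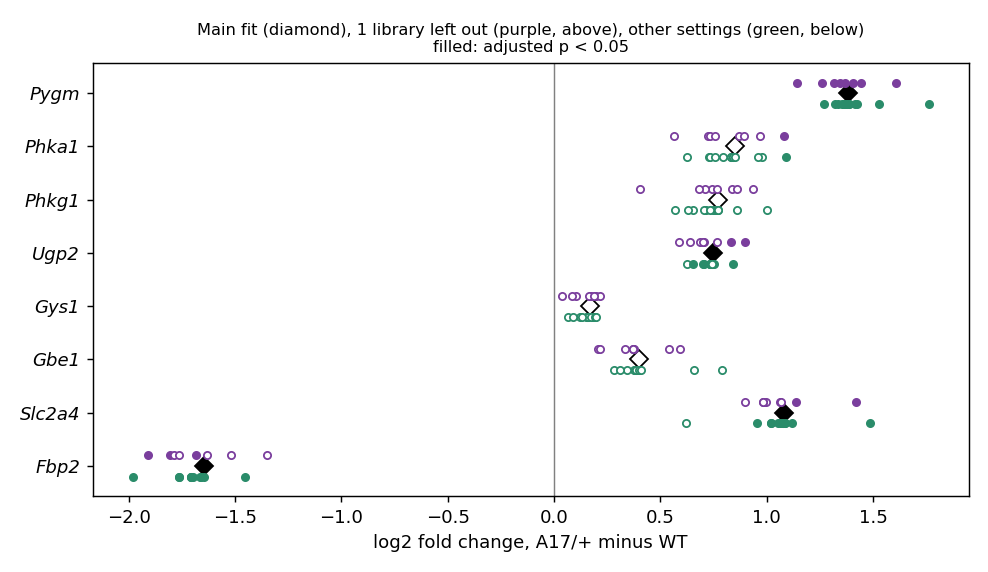
Log2 fold change of A17/+ minus WT (x axis) of the 8 tested members in the main fit (diamond), with 1 library left out (purple) and under the other settings (green), filled where the adjusted p was under 0.05. Every point keeps the side of 0 of its diamond, and Pygm alone is filled at every point.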

How the data were processed

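RNA of 8 tongue libraries was measured with mcSCRB-seq, a 3' method with UMIs. Per the submitters' processing notes the authors' tools were STAR 2.7.5a, HTSeq, UMI-tools 1.1.1 and cutadapt 2.10, with the build mm10; annotation release and strand setting are not given in the sources used here. The deposited table holds raw counts, which were analysed. The deposited log2 values of 10709 genes, which the counts reproduce as log2 CPM with a prior count of 1.06 to 2.56 UMIs per library, served 1 alternative.

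Symbols, positions and transcript lengths came from GENCODE M21 (mm10), which named 19675 of 19857 genes, and promoters from RefSeq (GRCm38.p6). Genes were filtered with filterByExpr (minimum count 10, minimum total 15), normalized with TMM factors and tested with edgeR 4.0.16 (R 4.3.3), quasi-likelihood, robust, with genotype as the only term, P-values adjusted by Benjamini-Hochberg over 5066 genes; intervals are 95% intervals from the same fit. The fit was tested on simulated data. Members and lists were chosen with earlier results of these data known. All members are named. From each list up to 3 called genes with the smallest p are named, or 2 as values where none passed (1 gene of the breakdown list is not reported here), and for Pygm and Fbp2 the 3 most correlated genes. The isoforms Phkb, Phka2, Phkg2, Pygb and Pygl and the marker genes named singly were added after their values were seen. Alternatives used DESeq2 1.42.0, limma 3.58.1 (voom and trend) and other scalings, filters and libraries.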

Additional observations from a re-analysis of the deposited data

How the results depend on the processing

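Over all genes, 321 were called higher and 132 lower. Higher and lower counts were 145 and 83 with limma-voom, 615 and 238 with no filter, 198 and 67 with counts thinned to the smallest library (1 draw), 538 and 259 with limma-trend on the deposited log2 values, 695 and 330 without both libraries numbered 1, and 487 and 288 at an adjusted p under 0.1. Scaling by totals alone shifted the median over all genes to -0.11, with 279 called higher and 289 lower, and the removal of the length trend gave 272 and 174. Leaving out 1 library gave 172 to 586 higher and 38 to 383 lower.

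Of the members, 3 were called higher and 1 lower. The count higher was 1 with thinned counts, 5 without both libraries numbered 1 (Phka1 joined, and Gyg, which passed the filter there through A17/+ alone) and 1 to 4 with 1 library left out. The count lower was 0 with limma-voom, with a mean count of 10 or more and with thinned counts, where Fbp2 was not tested in the latter 2, and 0 to 1 with 1 library left out. With the replicate number as a block 2 members were higher (Ugp2 missed, adjusted p = 0.0556), 1 was lower, and 311 genes were higher and 99 lower; same-numbered libraries correlated between -0.16 and 0.07 in their deviations from the genotype means, and the labels do not pair them. Depth limits Fbp2 and Gyg most, with 0 to 14 UMIs per WT library.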
